A study of Solanum tuberosum with 8 samples.

Results

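In the table of meristem RNA analysed here, 92 of 19664 tested potato genes stood at least 8-fold higher in nondormant than in dormant tuber buds while still having a measurable value in the dormant ones. They were chosen by these measured levels: a value of at least 0.5 FPKM (fragments per length of transcript, scaled to the reads mapped in the sample) in dormant meristems, at least 10 FPKM in nondormant meristems, and a nondormant value at least 8 times the dormant one. Genes starting on chromosome 1 at 1 to 2 Mb, chromosome 3 at 16 to 21 Mb or chromosome 4 at 6 to 7 Mb were left out. The whole table lists 35091 genes.

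A potato tuber is a swollen underground stem, and each of its eyes holds buds whose meristems later grow into sprouts. After harvest the buds stay dormant for a time even under conditions that would allow growth. In textbook accounts abscisic acid goes with the keeping of dormancy, while cytokinins and gibberellins go with its end, when meristem cells return to division and the young sprout begins to elongate. The genes described here are those whose transcripts were measurable in dormant buds and stood much higher in nondormant ones.

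RNA was sequenced from 8 samples of meristems of the cultivar Russet Burbank, grown in the field. The 4 dormant samples were cut about 2 weeks after the harvests of 2005, 2007, 2009 and 2010. The 4 nondormant samples were cut in spring of 2006, 2008, 2010 and 2011 from tubers kept at 4 °C until the buds began to show. These springs are the ones that followed the 4 harvests of the dormant samples, but the deposited values of each whole group allow no pairing. Time in storage, cold and dormancy differ together between the groups and cannot be told apart. The number of tubers behind a sample was not stated, and an excised bud holds other cells beside the meristem, so fewer cells of a type and less RNA per cell cannot be told apart either.

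The deposited table gives a single value per gene and group, the authors' own, so no spread between the 4 samples of a group can be printed for any level or ratio. Read depth per sample is unknown. Each ratio is nondormant over dormant, and a gene is called here when the q-value in the authors' deposited table (their p-value adjusted for false discoveries) is 0.05 or less. Gene names stand nowhere in the table, and 0 of its identifiers matched the reference gene list, so loci are given by position as printed in the table, with no genome build named and no function. For the same reason the labelled tissue could not be checked against marker genes.

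Nondormant values of the 92 genes ran from 10.03 to 9202 FPKM, with a median of 34.7 and quartiles of 17.9 and 104. Their dormant values ran from 0.543 to 878 FPKM, with a median of 2.69 and quartiles of 1.39 and 6.24. Over every tested gene the median values were 11.3 FPKM (nondormant) and 11.4 FPKM (dormant). The genes were thus mostly of low rank in dormant meristems and of high rank in nondormant ones. The median member stood at the 20.9th percentile of tested genes in dormant and at the 78.1st percentile in nondormant meristems. These levels were what the genes were chosen by, and they are given as a description.

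**Figure D1:**
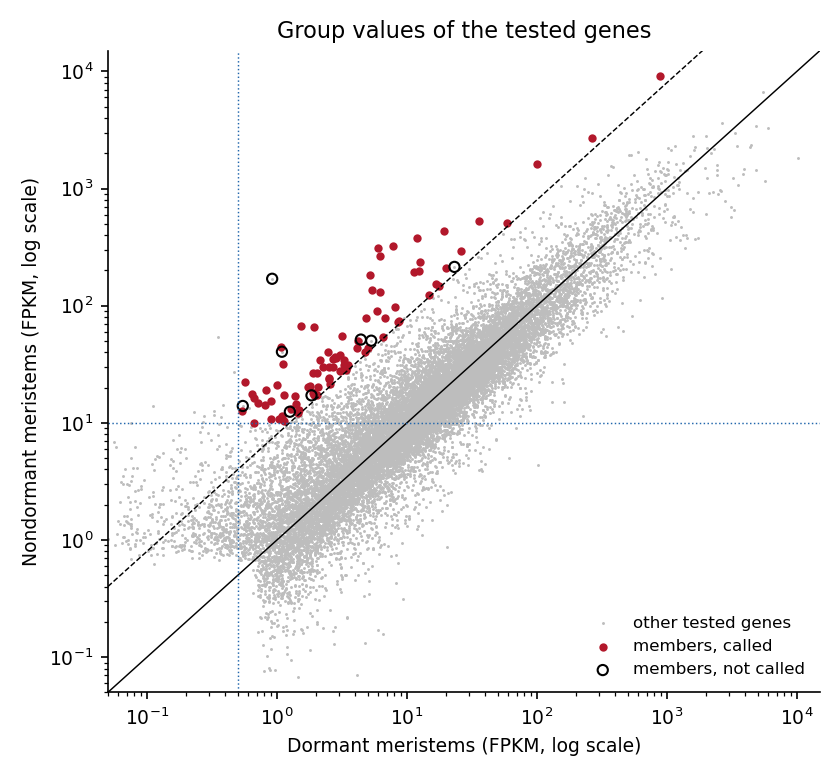
Each point is a tested gene, with its dormant value on the horizontal and its nondormant value on the vertical axis, both in FPKM on log scales (19577 genes; 87 with a value under 0.05 FPKM in a group are not drawn). The solid line marks equal values, the dashed line an 8-fold ratio and the dotted lines the floors of 0.5 and 10 FPKM. The 84 called members (filled) and 8 uncalled members (open) lie above the dashed line from 0.543 to 878 FPKM in dormant meristems.

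The ratio had a median of 11.96 (log2 ratio 3.58) and quartiles of 9.39 and 18.0, against a median of 0.965 over all tested genes not listed at 0 for either bud state. It lay below 10 in 30 genes, from 10 to below 16 in 31, from 16 to below 32 in 21 and at 32 or more in 10. Outside the positions left out, no tested gene that met both floors had a ratio between 7.97 and 8.26. Just inside the lower bound of 8 stood chr10:3453852-3458175 (28.3 and 3.43 FPKM in nondormant and dormant meristems, ratio 8.26), chr9:47617701-47619488 (ratio 8.28), chr3:24637218-24637899 (8.31) and chr8:36215223-36216934 (8.35). Just outside stood chr11:34159222-34166063 (38.2 and 4.79 FPKM, ratio 7.97), chr12:1299708-1301072 (7.95), chr10:47126835-47128082 (7.92) and chr5:11327192-11329610 (7.89). In the same way, the lowest dormant value kept was 0.543 FPKM and the highest left out was 0.465 FPKM, and the lowest nondormant value kept was 10.03 FPKM and the highest left out was 9.76 FPKM. The positions left out removed 3 genes, all on chromosome 1, with ratios of 8.30, 21.6 and 21.7.

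In all, 364 tested genes that are not listed at 0 for either bud state were at least 8-fold higher in nondormant meristems. Of these, 256 fell short of 10 FPKM in nondormant and 237 had less than 0.5 FPKM in dormant meristems. With the floors turned round, 21 genes were at least 8-fold higher in dormant meristems, from 11.99 to 227 FPKM there. Another 283 genes met the floors of the members at a ratio from 4 to below 8, and 14 met the nondormant floor at a ratio of 8 or more with a dormant value under 0.5 FPKM.

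The most abundant members held most of the RNA of the set. Summed over the 92 genes, the values came to 20840 FPKM in nondormant meristems, 2.47% of the table's total, and to 1744 FPKM in dormant meristems, 0.205% of the total. A single locus, chr7:39619065-39620684, supplied 44.2% of the nondormant and 50.4% of the dormant sum. Without it, the remaining genes summed to 11638 and 866 FPKM, a ratio of 13.4 against 11.95 with it.

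This chromosome 7 locus also had the highest nondormant value of any tested gene, 9202 FPKM against 878 FPKM in dormant meristems. Its ratio of 10.5 came with a test statistic of only 2.20 in size and a q of 0.0353 in the authors' deposited table, the smallest statistic among the called members. The next tested gene before it, 124019 bases away at chr7:39493320-39495045, was itself abundant, with a nondormant value of 1056 FPKM and a dormant value of 202 FPKM, and was called too (ratio 5.23, q = 0.0112 in the authors' deposited table). In dormant meristems the chromosome 7 locus stood at the 99.5th percentile, so the members differed widely in dormant level.

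Behind it came chr5:44728116-44729737, where 2674 FPKM in nondormant stood against 267 FPKM in dormant meristems. On chromosome 11, chr11:37012898-37013853 had 1619 against 101 FPKM, and its neighbour chr11:37016885-37018226 had 525 against 36.1 FPKM. These were followed by chr10:4378287-4378962 (503 against 58.6 FPKM), chr2:43665896-43674945 (438 against 19.3 FPKM), chr6:44765835-44766549 (379 against 11.9 FPKM) and chr11:6712042-6713376 (322 against 7.77 FPKM). Each of these 7 was called in the authors' deposited table, chr2:43665896-43674945 with q = 0.0303 and the others with q = 0.00179, the smallest value it holds. Nondormant values of 100 FPKM or more were listed for 23 members in all. In dormant meristems 3 members reached that level, 16 reached 10 FPKM, and 13 lay under 1 FPKM.

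The ranking by dormant level began with the same loci and added chr3:41635256-41637138 (26.2 FPKM in dormant, 290 FPKM in nondormant), a second gene model at chr2:43665896-43674945 (23.2 and 214 FPKM) and chr6:47771082-47771857 (20.05 and 210 FPKM). The second chromosome 2 model was not called (q = 0.108 in the authors' deposited table). The chromosome 6 locus was called, and so were the tested genes on each side of it, chr6:47760730-47761800 (ratio 4.62) and chr6:47772027-47775076 (ratio 5.89).

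The highest ratio belonged to an uncalled gene. At chr4:257058-257382, a locus of 325 bases, 170 FPKM in nondormant stood against 0.919 FPKM in dormant meristems, a ratio of 185. Its test statistic of 10.8 in size was the highest of all members in the authors' deposited table, yet its p-value was 0.00745 and its q 0.0616. The gene before it, chr4:250809-253005, had 54.1 and 0.354 FPKM and was called in the authors' deposited table, but its dormant value lies under the floor of 0.5 FPKM, so it is no member.

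Among called members the highest ratio was that of PGSC0003DMG400009267 at chr11:11388683-11389382, where 312 FPKM in nondormant stood against 6.01 FPKM in dormant meristems (ratio 51.9, log2 ratio 5.70, q = 0.00179 in the authors' deposited table). Next came PGSC0003DMG400004748 at chr8:39389127-39389711, with 67.7 FPKM against 1.53 FPKM (ratio 44.1). Loci with ratios between 37 and 44 followed at chr9:51758905-51759775 (268 against 6.23 FPKM), chr11:6712042-6713376 (322 against 7.77 FPKM), chr11:171241-174231 (44.8 against 1.08 FPKM) and chr7:50328655-50330106 (22.2 against 0.567 FPKM), all with q = 0.00179 in the authors' deposited table. The eighth gene in this order, chr2:34469645-34472362, had 40.5 against 1.09 FPKM, a ratio of 37.0, and was not called (q = 0.679 in the authors' deposited table). Genes of like ratio thus stood at nondormant levels from 22.2 to 322 FPKM. With 1 FPKM added to both values, the ratios of the 92 genes ran from 5.32 to 89.0 with a median of 8.95, and 33 of them lay below 8.

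**Figure D2:**
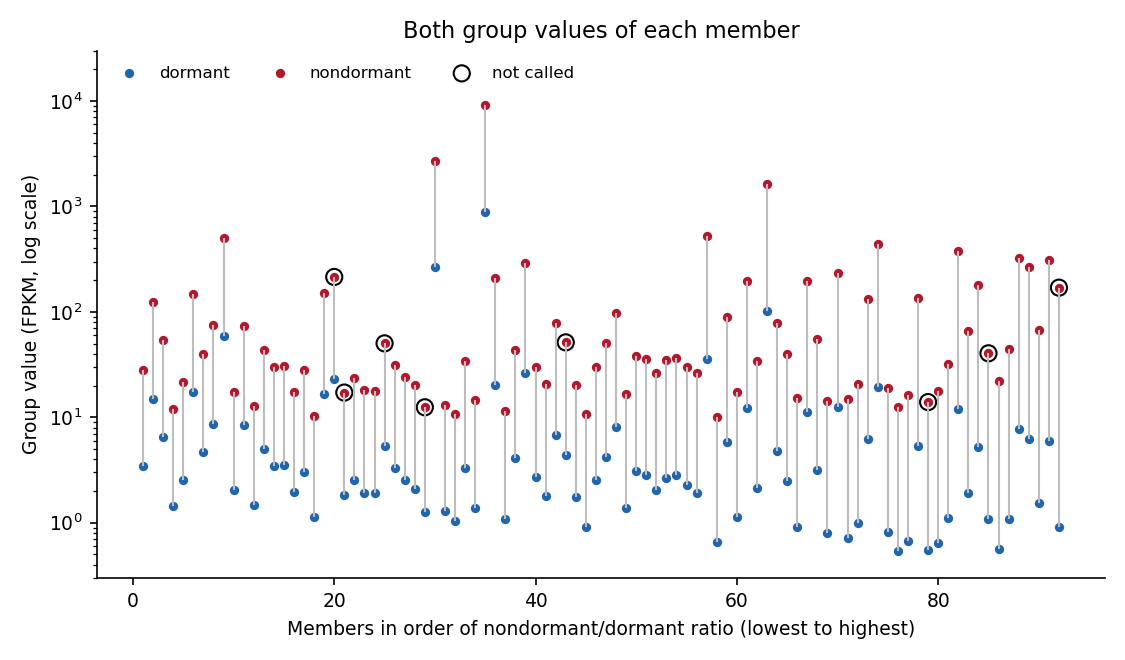
The 92 members are drawn from the lowest ratio (8.26) at the left to the highest (185) at the right, with the dormant and the nondormant value of each in FPKM on a log scale, joined by a line. Circles mark the 8 members that were not called. Low and high levels occur along the whole order, and the 3 members above 1000 FPKM in nondormant meristems had ratios of 10.5, 9.997 and 16.1.

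The ratio was not the same at every dormant level. The 13 members with a dormant value below 1 FPKM had a median ratio of 23.1, the 22 with 1 to below 2 FPKM one of 10.5, the 28 with 2 to below 5 FPKM one of 10.8, the 13 with 5 to below 10 FPKM one of 15.3 and the 13 with 10 to below 100 FPKM one of 11.1. In the lowest class the floor of 10 FPKM in nondormant meristems shuts out ratios near 8, so its higher median follows in part from how the genes were chosen. Within the class of 5 to below 10 FPKM, where that floor has no effect, ratios ran from 8.31 to 51.9.

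The authors' deposited table called 84 of the 92 genes, against 10.9% of all tested genes called in either direction and 7.17% called higher in nondormant meristems (3.75% were called higher in dormant ones). The ratio is part of what the call rests on, so nothing is read from this count. At q of 0.01 or less 78 members were called, and 70 had the smallest p-value of the table, 5e-05. The 6 members called at a q between these limits included the chromosome 7 locus of 9202 FPKM, 1 of the chromosome 2 models and 4 members with nondormant values from 10.7 to 15.4 FPKM.

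By size of the test statistic, the strongest called member was the locus of 358 bases at chr10:41834180-41834537, with a nondormant value of 196 FPKM and a dormant value of 12.3 FPKM (ratio 15.9, statistic 8.57 in the authors' deposited table). The tested genes on both sides of it were called as well, chr10:41823155-41823944 with a ratio of 2.69 and chr10:41837529-41837880, a locus of like size, with 280 against 41.0 FPKM and a ratio of 6.82. The others of the first 8 in the authors' deposited table were chr11:11388683-11389382 (statistic 7.75), chr8:42413715-42414393 (7.67, 65.6 against 1.93 FPKM), chr6:44765835-44766549 (6.91), chr11:6712042-6713376 (6.82), chr8:39400869-39401698 (6.81, 182 against 5.23 FPKM), chr10:43985905-43986391 (6.71, 195 against 11.3 FPKM) and chr9:51758905-51759775 (6.68). The chromosome 10 locus had a lower ratio than the other 7, so the order by statistic was not the order by ratio.

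Of the 8 uncalled members, 6 shared their printed interval with another gene model. Among the 92 members 13 shared an interval (14.1%), against 9.23% of tested genes. The share was 2.83% in the 283 genes of ratio 4 to below 8, and 14.3% in the 14 genes with a dormant value under 0.5 FPKM. Among called genes alone, 7 of the 84 members shared an interval, against 45 of the 1410 genes (3.19%) called higher in nondormant meristems. Of the 13 members with a shared interval, 7 were called, while 77 of the 79 members with an interval of their own were called. Over all tested genes, too, shared intervals went with fewer calls: 68 of 1815 genes with one were called, against 2080 of 17849 without. The size of the test statistic in the authors' deposited table had a median of 2.84 (range 0.170 to 3.87) in the 13 and of 4.30 (range 2.20 to 10.8) in the 79, at median ratios of 11.1 and 12.2. The uncalled members with an interval of their own were the chromosome 4 locus of 325 bases and chr12:58821183-58821525, a locus of 343 bases with 12.4 against 1.26 FPKM (ratio 9.89, q = 0.0501 in the authors' deposited table).

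**Figure D3:**
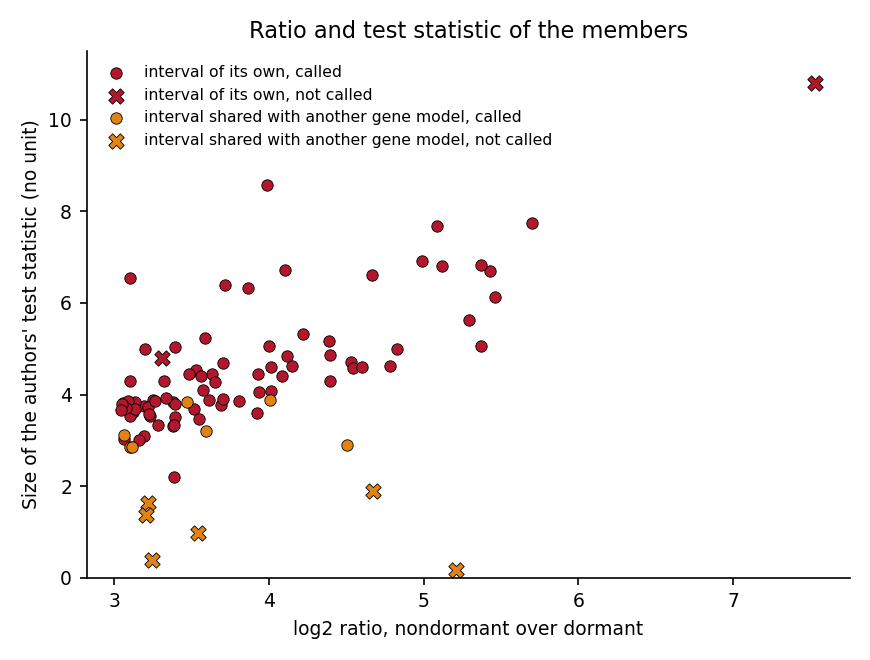
Each point is a member, with its log2 ratio on the horizontal axis and the size of the authors' test statistic (no unit) on the vertical axis. Circles are called and crosses uncalled members, and orange marks an interval shared with another gene model. The 6 uncalled members with a shared interval have statistics from 0.170 to 1.90, below every called member.

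The sources used here do not say how reads were divided between gene models of an identical interval, so the values of these members depend on that division. Summed over all gene models of an interval, the nondormant over dormant ratio stayed at 8 or more in 6 of the 12 intervals and fell below 8 in the other 6, among them 1 whose member was called (chr6:43413733-43416662, 5.89). At chr6:10722793-10724117, a member of 50.3 against 5.32 FPKM lies on the interval of a model with 32.3 against 48.2 FPKM, and their sum had a ratio of 1.54. Where chr2:34469645-34472362 held a member of 40.5 against 1.09 FPKM, the other model had 378 against 118 FPKM and was called (ratio 3.20), and the sum had a ratio of 3.51. For chr7:4049701-4056396 the member stood at 13.9 against 0.546 FPKM, its partner at 7.87 against 6.34 FPKM, and the sum at a ratio of 3.17. At chr3:42761558-42769286 the member stood at 51.4 against 4.42 FPKM, its partner at 22.9 against 15.7 FPKM, and the sum at a ratio of 3.69. In none of these 4 was the member itself called.

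Other shared intervals kept a high ratio as a whole. Both abundant gene models at chr2:43665896-43674945 were members (438 against 19.3 FPKM and 214 against 23.2 FPKM), another model there had 12.4 against 18.7 FPKM, and the sum had a ratio of 10.9. At chr11:37012898-37013853 the member held 99.4% of the interval's nondormant value, and the sum had a ratio of 16.1. The intervals chr3:41635256-41637138 and chr5:43807587-43809214 had summed ratios of 11.0 and 12.6, and the values there were 290 and 97.9 FPKM for the members in nondormant meristems.

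Most members stood alone in the genome, with a median distance of 1398 kb to the nearest other member on the chromosome. In 6 places members lay within 20 kb of each other, 13 genes in all, and 9 members (9.78%) were direct neighbours of a member in the order of tested genes. The like share was 18.7% among the 1410 genes called higher in nondormant meristems and 7.42% among the 283 genes of ratio 4 to below 8. Both of those classes are larger, and these shares were not compared by a test. Position, apart from the stretches left out, was not used in choosing the members. That called genes of like direction tend to be neighbours in this table was known when the genes were examined.

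On chromosome 8, 3 consecutive tested genes were members within 12.6 kb. At chr8:39389127-39389711 the values were 67.7 against 1.53 FPKM (ratio 44.1), at chr8:39396855-39397544 they were 30.03 against 2.69 FPKM (ratio 11.2) and at chr8:39400869-39401698 they were 182 against 5.23 FPKM (ratio 34.7). All 3 had q = 0.00179 in the authors' deposited table, and each printed interval is shorter than 1 kb. The tested genes on either side, chr8:39384005-39384422 (54.5 against 33.9 FPKM, ratio 1.61) and chr8:39429418-39433966 (24.6 against 11.7 FPKM, ratio 2.10), had lower ratios and were not called. The second of them lies 27719 bases from the nearest member, and its q was 0.0584 in the authors' deposited table.

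The chromosome 11 pair, 3031 bases apart, was the most abundant of these places, with ratios of 16.1 and 14.5 at 1619 and 525 FPKM in nondormant meristems. Another gene model on the interval of the first had 10.2 against 0.271 FPKM (ratio 37.8) and was not called. The nearest tested gene before that interval, chr11:37010796-37012350, was called with a ratio of 2.43. The gene after the pair, chr11:37020105-37027342, had 6.55 against 8.38 FPKM and was not called. On chromosome 5, chr5:43840180-43840675 (36.7 against 2.82 FPKM, ratio 13.0) and chr5:43840790-43841354 (10.7 against 1.03 FPKM, ratio 10.4) are separated by 114 bases, and both were called. Just before them, chr5:43838116-43839305 had a nondormant value of 1237 FPKM and a dormant value of 850 FPKM, a ratio of 1.46 that was not called. A further member, chr5:43807587-43809214 (97.9 against 8.11 FPKM), lies less than 50 kb before the pair on the printed coordinates.

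The remaining places hold members on a shared interval. On chromosome 4, chr4:2482740-2485348 (30.9 against 3.52 FPKM, ratio 8.79) and a model at chr4:2491020-2499487 (72.9 against 8.48 FPKM, ratio 8.60) were both called. On chromosome 2, chr2:34454527-34456453 (19.0 against 0.824 FPKM, ratio 23.1) was called, and it is parted from the uncalled member at chr2:34469645-34472362 by a tested gene with 4.44 against 4.90 FPKM. Leaving out members on shared intervals, 5 members remained next to another, the 3 on chromosome 8 and the pair on chromosome 5.

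**Figure D4:**
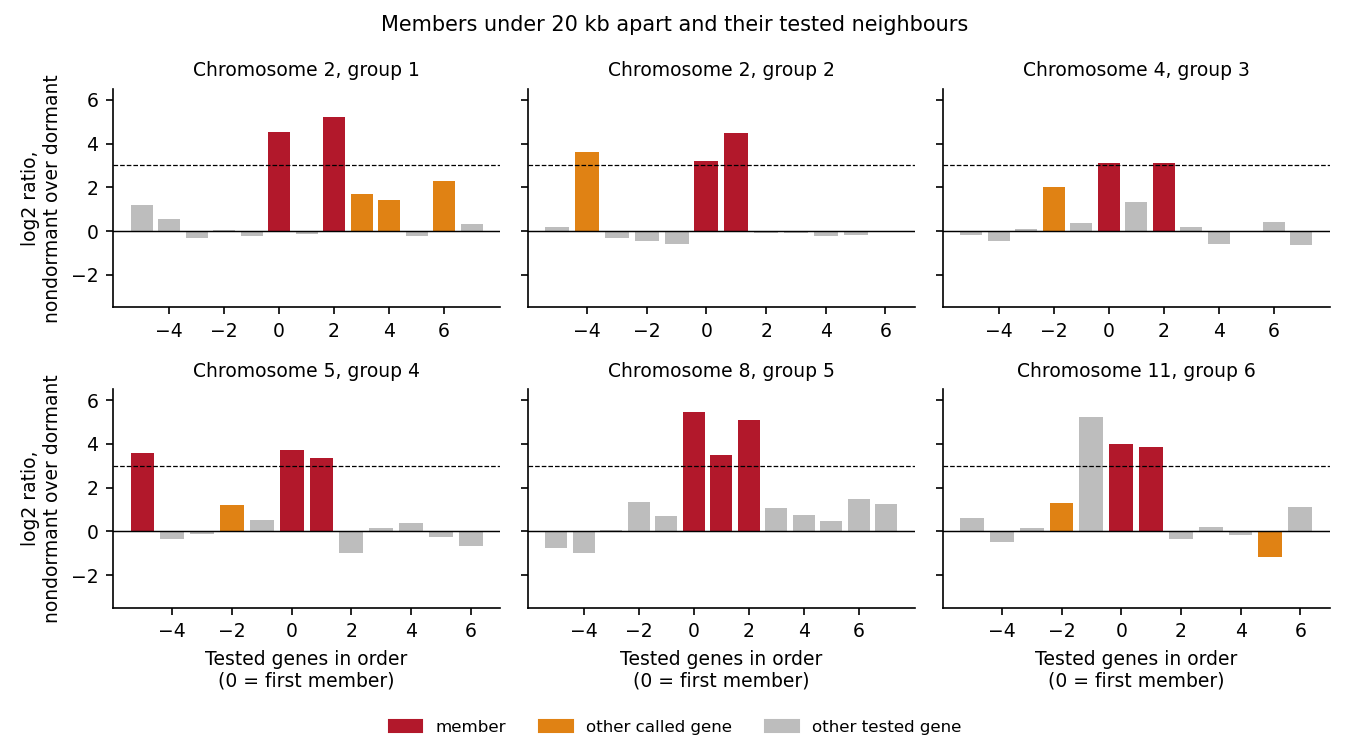
Bars give the log2 ratio, nondormant over dormant, of tested genes in their order along the chromosome, counted from the first member (0), for the 6 places where members lie under 20 kb apart. Red bars are members, orange bars other called genes and grey bars other tested genes, and the dashed line marks an 8-fold ratio. On chromosome 8 the 3 members stand side by side between uncalled genes, while on chromosome 5 a gene of ratio 1.46 lies directly before the pair.

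Beyond the members themselves, 172 tested genes stood directly beside a member in the order of tested genes. Other gene models on a member's own interval are counted among them, such as the called one at chr2:34469645-34472362 (ratio 3.20). Of the 172, 25 (14.5%) were called higher in nondormant meristems and 5 (2.91%) higher in dormant ones, against 7.17% and 3.75% of all tested genes. For the 283 genes of ratio 4 to below 8, the flanking genes numbered 539, and 50 of them (9.28%) were called higher in nondormant meristems. The shares were not tested against each other. The median ratio of the genes beside members was 1.12.

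Some flanking genes had ratios above 8 themselves, with nondormant values under the floor of 10 FPKM. Next to chr2:42203731-42204589 (38.1 against 3.07 FPKM) the gene chr2:42206839-42207898 had 4.95 against 0.154 FPKM (ratio 32.1). Beside chr5:37914505-37916200 (39.9 against 2.47 FPKM), the next tested gene, chr5:37966229-37967867, had 9.16 against 0.631 FPKM (ratio 14.5). On chromosome 1, chr1:64837662-64838019 (74.5 against 8.69 FPKM) lies before chr1:64839026-64841381 (3.78 against 0.330 FPKM, ratio 11.47), and the gene on its other side, chr1:64832022-64835666, stood above both floors with a lower ratio of 3.70 (18.0 against 4.88 FPKM). All of these flanking genes were called in the authors' deposited table, but others with such ratios below that floor were not. They were chr8:30619515-30620182 (4.63 against 0.0378 FPKM, ratio 122) and the other models on the intervals of 2 members. These models had 8.32 against 0.842 FPKM at chr3:41635256-41637138 (ratio 9.88) and 0.751 against 3.99e-05 FPKM at chr5:6120296-6125768.

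In 5 cases a gene beside a member was called in the opposite direction. At chr9:51763184-51765255, 3408 bases from the member at chr9:51758905-51759775 (268 against 6.23 FPKM), the nondormant value was 15.2 FPKM and the dormant value 162 FPKM, so 2 neighbouring loci differed 43.0-fold one way and 10.7-fold the other. The member chr4:62083294-62086138 (132 against 6.26 FPKM, ratio 21.1) had dormant-higher calls on both sides, chr4:62030733-62031964 with 187 against 814 FPKM and chr4:62089977-62090945 with 1.63 against 6.29 FPKM. Beside chr1:76746848-76747684 (14.3 against 0.805 FPKM), a gene 851 bases away had 47.2 against 123 FPKM. Beside chr12:55103770-55107196 (30.3 against 2.54 FPKM), the gene before it had 2.15 against 7.95 FPKM.

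Members were found on all 12 chromosomes. Chromosome 5 had the most, 11 of its 1356 tested genes (0.811%), and chromosomes 9 and 12 the fewest, 3 of 1451 (0.207%) and 3 of 1438 (0.209%). Over all tested genes the share was 0.468%. Chromosomes 8, 10 and 11 had 9 members each, at shares of 0.664%, 0.684% and 0.680%. Counts this small were not tested. Genes called higher in nondormant meristems made up from 6.34% of tested genes on chromosome 9 to 8.06% on chromosome 10.

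**Figure D5:**
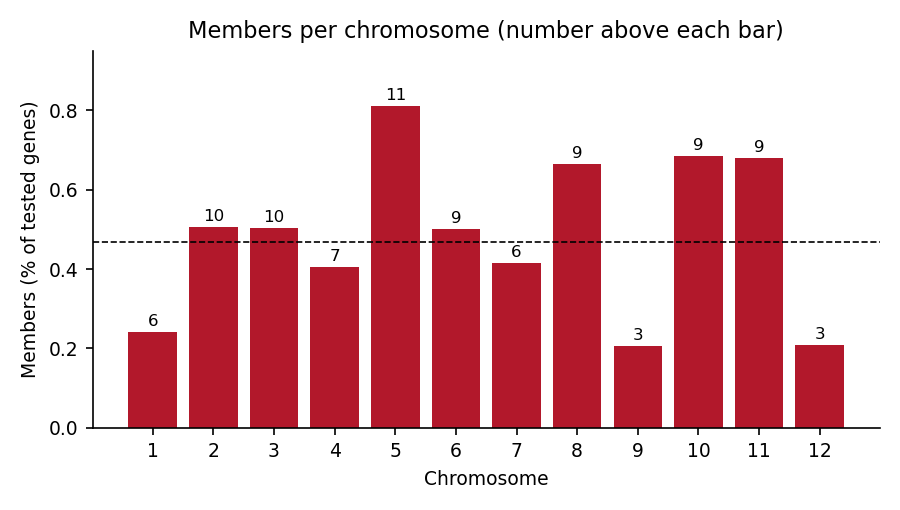
Bars give the members of each chromosome as a percentage of its tested genes, with the number of members above each bar, and the dashed line gives the share over all chromosomes (0.468%). Chromosome 5 stands highest at 0.811% with 11 members, and chromosomes 9 and 12 lowest with 3 each. The 3 genes left out by position would all add to chromosome 1.

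Members occupied short stretches of the genome. The printed interval, introns included, had a median of 1625 bases in the 92 genes, against 3527 bases over all tested genes and 3995 bases over the 11507 tested genes with at least 10 FPKM in either group. Of the members, 28 (30.4%) spanned less than 1 kb, against 11.2% of all tested genes, and 7 (7.61%) less than 500 bases, against 2.27%. Short intervals were not particular to these genes: the median was 1974 bases in the 283 genes of ratio 4 to below 8, and 1105 bases in the 21 genes at least 8-fold higher in dormant meristems. Genes called higher in nondormant meristems had a median of 2799 bases and genes called higher in dormant meristems one of 2518 bases. Spans were not compared by a test, and whether fewer reads on short loci spread their ratios more widely was not tested.

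Within the set, span and ratio varied together in part. The 10 members with a ratio of 32 or more had a median span of 850.5 bases, and 6 of them were shorter than 1 kb. The 30 members with a ratio below 10 had a median span of 1808 bases, and 6 of them were shorter than 1 kb. Level varied with span as well: of the 20 members between 100 and 1000 FPKM in nondormant meristems 11 were shorter than 1 kb, and of the 25 between 10 and 20 FPKM 6 were. FPKM is a level per length of transcript, while the spans given here include introns. Whether length bears on these levels was not tested.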

How the data were processed

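Per the labels' protocols, meristems were excised, frozen, and their RNA was extracted with an Ambion kit for Illumina libraries. The deposited group values are taken to be the authors' FPKM because the table has the columns and status words of Cuffdiff output, although its header names no unit. Aligner, build, annotation and the way 4 samples became 1 value: not given in the sources used here. The authors' test statistic is used as a score. The deposited p-values and q-values are the authors'. Ratios were recomputed from the FPKM values with no pseudocount. Members are genes with status OK within the floors, and identical printed intervals count as shared. No test was run, since the deposited table holds no values per sample. Members and lists were chosen with earlier results of these data known. Named loci are the 8 highest by ratio, by either level and by statistic among called genes, those nearest the ratio bound, and direct neighbours; flanking genes, partners on shared intervals and other loci were named after their values were seen. The gene lists and marker lists planned by name gave no result. In a simulated table the counting steps recovered all genes planted inside the bounds, which checks the code and not the results. Software was matplotlib 3.10.9, scipy 1.17.1, pandas 2.3.3 and numpy 2.4.6 under Python 3.11.15.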

Additional observations from a re-analysis of the deposited data

Results flagged for a closer look

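Outside the tested genes, 2 loci met all level bounds of the 92 members (a dormant value of at least 0.5 FPKM, a nondormant value of at least 10 FPKM, and at least 8-fold apart) but carry the status LOWDATA, so the authors' deposited table gives them no test. They are 2 of 44 genes with that status. At chr5:43807587-43809214 a gene model had a nondormant value of 31.4 FPKM and a dormant value of 2.15 FPKM (ratio 14.6), on the same interval as a called member. At chr12:58818942-58820484 a gene model had a nondormant value of 32.2 FPKM and a dormant value of 2.96 FPKM (ratio 10.9), and the nearest member, the uncalled chr12:58821183-58821525, lies 698 bases away. Both were singled out because they met these bounds in data that the comparison leaves out. The direction and least size of their ratios therefore follow from how they were picked.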

How the results depend on the processing

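With a ratio of at least 6 in place of 8 the set held 172 genes, with a dormant floor of 2 FPKM 57, and with 1 FPKM added to both values 59, against 92; the other 8 choices of bound or scaling gave from 62 to 122 genes. Under median scaling and quantile normalization 92 and 89 of the 92 genes were kept. The count of 84 called members of 92 became 0 under Bonferroni adjustment, where the smallest deposited p-value cannot pass over 19664 tests. It was 78 of 92 at a deposited q of 0.01 or less. In the smaller sets it was 73 of 79 with a dormant floor of 1 FPKM and 77 of 79 without shared intervals. The median log2 ratio of 3.58 became 3.52 and 3.16 with pseudocounts of 0.1 and 1, 3.53 after quantile normalization and 3.48 with a dormant floor of 1 FPKM. Members next to another numbered 5 without shared intervals, against 9. Leaving out replicates was not run. No paired analysis was possible because the table holds only the values of each whole group.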
